A study of Drosophila melanogaster with 2 samples.

Results

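The regions described are the ChIP-seq peaks of the fly transcription factor CG3065 that lay at promoters shared by several genes. They were chosen by position alone: the summit of a thresholded peak had to lie within 500 bp of the annotated start sites of 2 or more different protein-coding genes. Of 2451 thresholded peaks, 508 met this rule (20.7%). The other peaks were 728 at the start site of a single gene and 1215 with no protein-coding start site within 500 bp.

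The study precipitated chromatin from Drosophila melanogaster embryos that carried a transgene with green fluorescent protein (GFP) fused to the C-terminus of CG3065, using an antibody against GFP. There was 1 group of 2 biological replicates, numbered 1 and 3, of whole embryos of pooled sexes aged 0 to 16 h, so each value averages over all embryonic cell types and over early and late stages. Both replicates carried the same fusion, no group without it was part of the lists, and the background of the antibody was therefore not measured here. Nothing could be compared between groups, and all values below are descriptions of the lists with no test.

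Genes of Drosophila lie close together, and many are arranged head to head, so that the start sites of neighbours on opposite strands lie only a short stretch apart. Such a divergent pair can share 1 nucleosome-poor stretch of DNA from which both genes are transcribed outward. Promoters of this kind are known mostly from genes that all cells use, and they often carry the DNA replication-related element (DRE), bound by DREF, or the CGATA core bound by the insulator protein BEAF-32. CG3065 belongs to the Sp/KLF family of zinc finger proteins, whose members are known to bind GC-rich boxes of the CACCC type.

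The stretches between the start sites of 5 of the strongest divergent pairs are shown first, since they are the DNA in which these summits lay. Each is the plus strand of the Release 6 genome (dm6), 5′ to 3′, running from the base after the start of the minus-strand gene to the base before the start of the plus-strand gene, and the 11 capital letters are centred on the summit. The gap of Art3 and mRpS10 was chr3R:15229409-15229664, and that of Tcs5 and CHMP2B was chr3L:5139396-5139618. The gap of Lon and PIG-F was chr3L:19612200-19612454, that of Mkk4 and SLIRP2 was chr3R:8650797-8651083, and that of Atat and Shc was chr3L:9426759-9427009. The gaps were 223 to 287 bases long. These gaps were taken only from peaks with the summit between start sites at most 300 bp apart. Lying upstream of both genes was therefore fixed by this choice, and the distances were 100 to 161 bp.
Art3 and mRpS10: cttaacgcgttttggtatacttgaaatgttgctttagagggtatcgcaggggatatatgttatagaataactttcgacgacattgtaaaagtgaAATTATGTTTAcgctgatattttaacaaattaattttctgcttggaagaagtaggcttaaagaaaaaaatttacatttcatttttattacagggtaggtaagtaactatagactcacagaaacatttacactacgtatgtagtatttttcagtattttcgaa
Tcs5 and CHMP2B: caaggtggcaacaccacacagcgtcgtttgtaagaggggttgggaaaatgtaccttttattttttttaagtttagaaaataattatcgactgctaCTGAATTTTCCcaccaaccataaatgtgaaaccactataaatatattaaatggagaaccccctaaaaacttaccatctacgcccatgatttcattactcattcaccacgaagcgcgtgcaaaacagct
Lon and PIG-F: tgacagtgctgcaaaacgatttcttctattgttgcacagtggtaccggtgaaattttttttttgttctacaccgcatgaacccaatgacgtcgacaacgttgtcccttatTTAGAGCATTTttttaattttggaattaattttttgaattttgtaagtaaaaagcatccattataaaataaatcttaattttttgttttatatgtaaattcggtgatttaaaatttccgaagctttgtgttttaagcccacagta
Mkk4 and SLIRP2: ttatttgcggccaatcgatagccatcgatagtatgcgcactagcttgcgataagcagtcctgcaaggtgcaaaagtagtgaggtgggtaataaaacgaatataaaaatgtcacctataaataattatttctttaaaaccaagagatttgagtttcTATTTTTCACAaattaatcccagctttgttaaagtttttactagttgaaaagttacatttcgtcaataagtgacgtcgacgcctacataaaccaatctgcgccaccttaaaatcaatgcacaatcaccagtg
Atat and Shc: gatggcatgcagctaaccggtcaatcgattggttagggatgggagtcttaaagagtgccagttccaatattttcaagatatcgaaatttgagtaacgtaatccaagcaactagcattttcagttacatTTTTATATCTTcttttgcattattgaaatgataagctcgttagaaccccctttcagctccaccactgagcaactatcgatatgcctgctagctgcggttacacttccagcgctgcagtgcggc

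A second set of 3 gaps, from the same strand and build, shows promoter motifs, which are in capitals here and mark no summit. The gap of CG10147 and Bulli was chr3L:6488425-6488680 and held Ohler motif 7 at 3 places. The gap of RpS25 and CG4820 was chr3R:11216288-11216534 and held the DRE. The gap of CG9356 and CG8135 was chr3R:9404270-9404384 and held a box of the Sp/KLF type.
CG10147 and Bulli: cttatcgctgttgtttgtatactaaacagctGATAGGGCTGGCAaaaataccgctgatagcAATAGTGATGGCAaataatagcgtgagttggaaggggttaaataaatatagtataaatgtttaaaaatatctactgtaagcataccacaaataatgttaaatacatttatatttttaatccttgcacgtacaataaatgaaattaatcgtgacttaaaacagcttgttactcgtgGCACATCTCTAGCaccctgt
RpS25 and CG4820: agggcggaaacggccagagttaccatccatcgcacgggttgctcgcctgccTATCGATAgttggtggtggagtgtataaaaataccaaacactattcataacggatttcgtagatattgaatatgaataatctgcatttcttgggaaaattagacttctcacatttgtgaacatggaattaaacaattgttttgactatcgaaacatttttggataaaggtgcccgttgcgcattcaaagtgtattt
CG9356 and CG8135: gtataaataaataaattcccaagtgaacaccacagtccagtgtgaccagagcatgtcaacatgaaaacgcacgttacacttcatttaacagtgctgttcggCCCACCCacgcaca

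The size of each peak is given by the signal that the authors' peak caller wrote, a value in arbitrary units that ranks peaks within a list. It was available for both replicates pooled and for each replicate alone, as relaxed lists of 30000 peaks for the pooled reads, 30000 for replicate 1 and 26271 for replicate 3. The authors thresholded by the irreproducible discovery rate (IDR), and the 2451 peaks that passed are the top of the pooled relaxed list by signal, from 81.3 to 1017. A relaxed peak whose summit lay within 200 bp was taken as the same peak in a replicate. The lists gave no read counts, so the depth of each replicate is unknown. Intervals are exact binomial (Clopper-Pearson) at 95% and cover counting error only.

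The strongest of the 508 peaks lay at the pair of Chro and Ssl1 and at that of Art3 and mRpS10. The peak of Chro and Ssl1 (chromosome 3L, summit at 22878878) had a pooled signal of 733, with 382 in replicate 1 and 352 in replicate 3. Chro encodes the chromodomain protein Chromator of polytene interbands, and Ssl1 a subunit of the general transcription and repair factor TFIIH. Its summit was not in the gap of 105 bp but 106 bp inside Chro. The peak of Art3, an arginine methyltransferase, and mRpS10, a protein of the small subunit of the mitochondrial ribosome, also reached 733, with 363 in replicate 1 and 369 in replicate 3. Its summit lay between the starts, 100 bp upstream of Art3 and 157 bp upstream of mRpS10, as seen in the gap printed above. Both replicates placed these peaks among their 10 strongest.

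Next came the peak of mRpS23, another protein of the mitochondrial small subunit, and CenG1A, a GTPase-activating protein for Arf, at 650 pooled, 314 in replicate 1 and 336 in replicate 3. The peak of Tcs5, needed for a modification of tRNA, and CHMP2B, a component of the ESCRT-III membrane scission complex, followed at 578, with 301 in replicate 1 and 272 in replicate 3. Both replicates ranked it at 21. Lon, a protease of the mitochondrial matrix, and PIG-F, which acts in the synthesis of membrane anchors, shared a peak of 489 (255 in replicate 1, 239 in replicate 3). Pdrg1 and Pal1, an enzyme of peptide hormone amidation, shared one of 471 (226 and 245), the strongest at an overlapping pair. Within the 5 printed gaps, Mkk4, a kinase of the JNK pathway, and SLIRP2 had a peak of 393 (205 and 192). Atat, an acetyltransferase of tubulin, and the adaptor protein Shc also had one of 393 (186 and 203).

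The 25 strongest members ranged down to 353, at CG11309 and CG7632. Among them the homeobox gene ro shared a peak of 407 with T48, a gene of gastrulation (230 in replicate 1, 185 in replicate 3). They also included l(2)gd1, which acts in Notch receptor trafficking, with Reps, a gene of endocytosis (382). The translational repressor eIF4EHP was paired with CG18428 (381), RpS27 with the nuclear pore gene Nup37 (381), Lpt, a component of a histone methyltransferase complex, with CG5339 (364), and RpL7 with Ripalpha (358). The remaining pairs were Pex11ab and CG8320 (497), Fbw5 and CG9147 (492), CG5611 and Mtl (447), tank and CG12194 (441), CG5757 and CG5098 (424), CG13390 and CG17294 (370), CG8372 and CG8360 (368), Mnat9 and CG1792 (368), mRpL23 and CG9004 (361), and CG3437 and CG3552 (360). Of these 25, the last pair and Pdrg1 with Pal1 were overlapping and all others divergent.

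**Figure D1:**
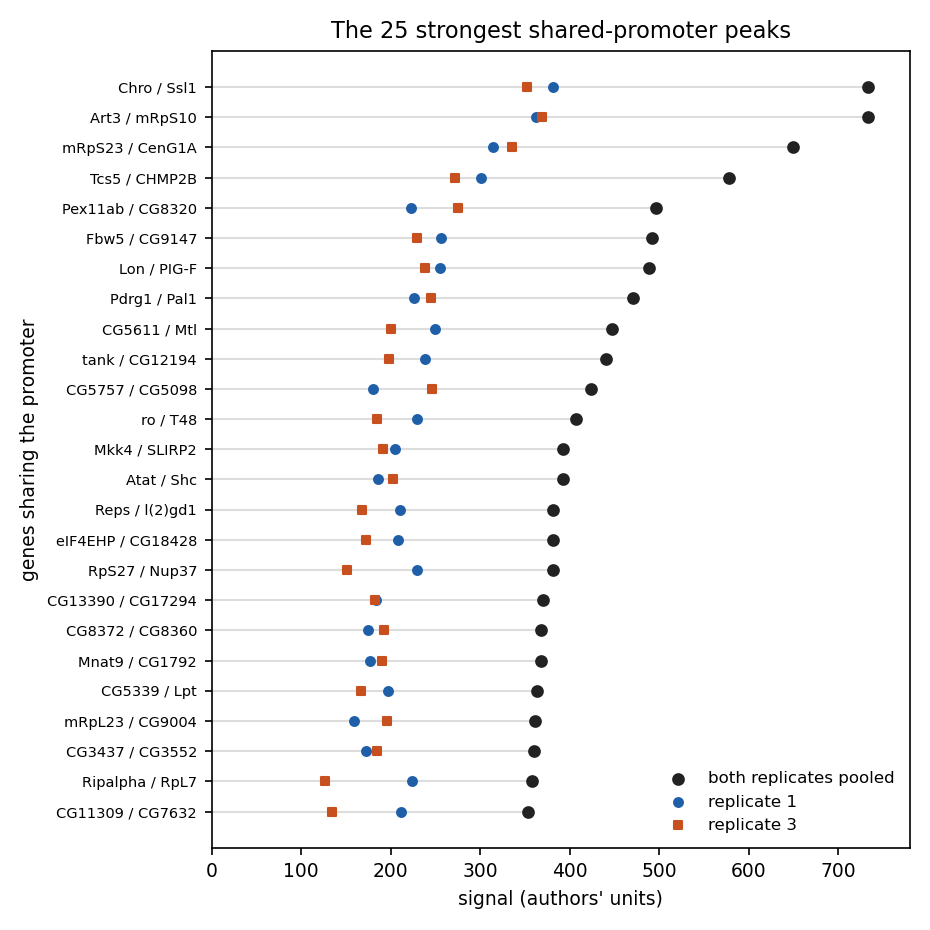
Signal of the 25 strongest shared-promoter peaks (x axis, the authors' units, linear), named by the genes that share the promoter, for the pooled reads (black), replicate 1 (blue) and replicate 3 (orange squares). Pooled values run from 733 down to 353, replicate 1 spans 159 to 382 and replicate 3 spans 127 to 369, and neither replicate is the higher one throughout.

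The gene of the precipitated protein was itself among them. CG3065 is divergent from CG10904 with 232 bp between the starts, and a summit at position 23970210 of chromosome 2R lay between them. Its pooled signal was 114, with 59.9 in replicate 1 and 46 in replicate 3. It stood at rank 288 of the 508 members. Since the line carries a transgene of CG3065, reads from the transgene and from the gene in its own place cannot be told apart in these lists.

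The number of genes at a member peak was nearly always 2. It was 2 at 480 peaks, 3 at 24, 4 at 2 peaks, 5 at 1 peak and 10 at 1 peak. The peak with 10 lay at mod(mdg4), an insulator gene whose trans-spliced parts are annotated as separate genes named pre-mod(mdg4), and had a signal of 234 (109 in replicate 1, 124 in replicate 3). The peak with 5 lay at PIG-M, CG42379, CG42380, CG42381 and NC2alpha and had a signal of 216 (132 and 80.4). Together the members named 1017 genes and 600 different gene pairs, 19 of them at 2 or more peaks, which gives 619 pairs counted per peak.

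Among IDR peaks at promoters, 508 of 1236 were at shared ones, a share of 41.1% (38.3 to 43.9%). Among the weaker pooled relaxed peaks at promoters, 1301 of 6082 were (21.4%, 20.4 to 22.4%). In the list of as many of the strongest peaks of replicate 3 alone the share was 42%, and in that of replicate 1 alone it was 39.5%. Of all IDR peaks, members made up 27.0% (18.6 to 36.8%) of the 100 strongest, 25.4% of the 500 strongest and 20.7% of the whole list. These sets are nested, and the interval for the 100 strongest includes the share of the whole list. Among promoter peaks in the stronger part of the IDR list, 284 of 672 were at shared promoters (42.3%), close to the 41.1% of all promoter peaks.

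Seen from the genes, 7.29% of all 13945 protein-coding genes had a shared-promoter peak, and 12.0% had an IDR summit within 500 bp of any kind. Genes with no start site of another gene within 1000 bp had an IDR summit in 6.36% of 7960 cases. Genes that form a divergent pair had one in 21.4% of 4648 cases, and 19.1% of them had a shared-promoter peak. A gene in a close pair has its neighbour's peaks within reach as well as its own, so part of this gap follows from counting.

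By arrangement, 482 of the 619 pairs were divergent (77.9%, 74.4 to 81.1%). Overlapping pairs numbered 136 (22.0%), and 1 pair was tandem, with both genes on the same strand and no shared base (0.162%). Among all 3520 annotated pairs with start sites within 1000 bp of each other, 69.2% were divergent, 20.9% overlapping and 9.83% tandem. The pairs at weaker relaxed peaks were 74.5% divergent, 24.0% overlapping and 1.49% tandem. Start sites of tandem pairs lie farther apart, with a median of 802 bp against 304 bp for divergent pairs, so fewer of them can fall within 500 bp of 1 summit.

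The same comparison as a share of each kind of pair gave 19.1% (17.6 to 20.7%) of the 2435 divergent pairs with an IDR summit within 500 bp of both genes. It gave 18.3% (15.5 to 21.2%) of the 734 overlapping pairs and 0.289% of the 346 tandem pairs. Read against these backgrounds, divergent and overlapping pairs, each taken as a whole, held a shared peak at nearly the same rate. Their start sites lay at unlike distances, with a median of 304 bp in divergent and 5 bp in overlapping pairs. The classes were not compared at like distances. The tandem pair was CG43925 with CG5439, both on the plus strand. Its peak also served Sfmbt, a Polycomb group gene on the minus strand, which overlaps CG43925 and is divergent from CG5439. That peak had a signal of 155, with 83.9 in replicate 1 and 73.9 in replicate 3.

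The overlapping pairs fell into kinds. There were 71 pairs on the same strand with the same start base, 45 on opposite strands whose 5′ ends overlap, 15 with a gene nested in its opposite-strand neighbour and 5 other pairs on the same strand. The mod(mdg4) peak supplies many of the same-strand pairs, and without it 112 of 574 pairs were overlapping. As a share of annotated pairs of each kind, an IDR summit lay near both genes at 21.1% of 360 pairs with the same start, 24.0% of 183 with overlapping 5′ ends and 14.9% of 94 nested pairs. Annotated pairs are classed there by their closest starts and member pairs by the starts nearest to the summit, and by closest starts none of the 94 other same-strand pairs had one. The strongest with overlapping 5′ ends after Pdrg1 and Pal1 was that of Hrd3, of the disposal of misfolded endoplasmic reticulum proteins, and PTPMT1, a mitochondrial phosphatase (335 pooled, 160 and 177 in the replicates). The strongest with the same start were CG8788 and CG44286 (334; 152 and 174) and Sesn, the stress protein sestrin, with CG46429 (311; 191 and 121). The strongest nested ones were CG3437 with CG3552 (360; 172 and 185) and Adck1 with CG4741 (241; 140 and 102). Cyp6u1, a cytochrome P450 gene, and Ufsp1 led the other same-strand pairs (287; 150 and 137).

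A pair named here after its values were seen is that of Fer1HCH and Fer2LCH, which encode the heavy and light chains of the iron store ferritin and have overlapping 5′ ends on opposite strands. It had a summit at position 30388510 of chromosome 3R with a signal of 239, 124 in replicate 1 and 113 in replicate 3.

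At the level of peaks, 436 of the 508 had at least 1 divergent pair (85.8%) and 412 had divergent pairs only. Overlapping pairs only were found at 72 peaks. The 436 divergent peaks had a median distance of 278 bp between the starts, and the middle 50% ran from 215 to 365 bp. The summit lay between the starts at 363 of them (83.3%, 79.4 to 86.6%), against 71.6% (68.8 to 74.4%) of 1033 weaker relaxed peaks at divergent pairs. The median summit was 88.5 bp from the nearer start and 198 bp from the farther. It lay within 50 bp of the midpoint at 41.5% of peaks, against 31.2% of the weaker ones. The starts at the weaker peaks were a median of 289 bp apart, with the middle 50% from 158 to 402 bp. The 2 sets were not compared at like distances between the starts.

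The position of the summit followed the room between the genes. With starts at most 100 bp apart, 12 of 47 summits were between them (25.5%), and with 101 to 200 bp, 27 of 45 were (60.0%). With 201 to 300 bp, 150 of 163 were (92.0%), and at every larger distance at least 94.3% were. Of the 73 summits outside, 47 lay in the minus-strand gene and 26 in the plus-strand gene, at a median of 45 bp past the start. The median distance to the nearer start was 39 and 40 bp for the 2 closest classes and 89, 110, 120 and 185 bp for the wider ones in turn. A wider gap leaves more room between the starts, so this order follows in part from the geometry.

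**Figure D2:**
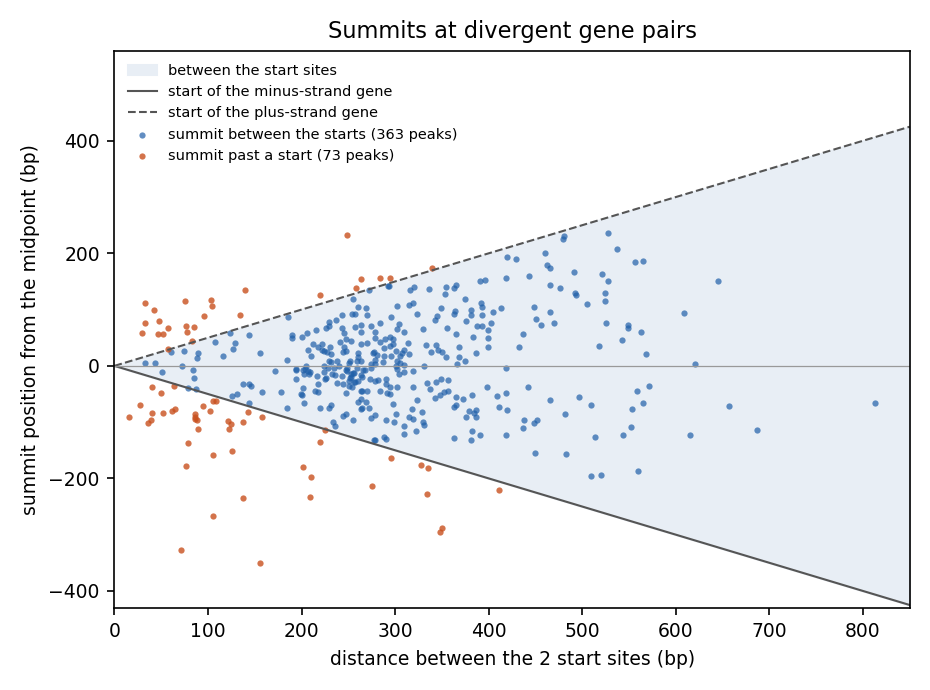
Position of the summit relative to the midpoint between the start sites (y axis, bp, negative toward the minus-strand gene) against the distance between the start sites (x axis, bp) for 436 peaks at divergent pairs. The shaded wedge is the gap itself: 363 summits lie in it, and most of the 73 outside belong to pairs less than 200 bp apart.

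Divergent pairs with 201 to 400 bp between their starts most often had a shared peak. The share of annotated pairs with one was 16.9% (13.2 to 21.2%) at 0 to 100 bp and 17.4% (13.5 to 22.0%) at 101 to 200 bp. It was 33.3% (29.1 to 37.6%) at 201 to 300 bp and 29.5% at 301 to 400 bp. It was 14.9% at 401 to 500 bp and 5.15% at 501 to 1000 bp. The stretch from which a summit reaches both starts shrinks as the starts move apart, and its part in these shares was not tested.

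Each replicate alone gave the same order. Over 0 to 200 bp the share was 17.2% in the IDR list, 16.3% with the strongest peaks of replicate 3 alone and 19.0% with those of replicate 1 alone. Over 201 to 400 bp it was 31.6%, 31.5% and 30.9%, and over 401 to 1000 bp 7.88%, 8.92% and 6.26%. The median pooled signal was 131 at 0 to 100 bp, 115 at 101 to 200 bp, 123 at 201 to 300 bp and 116 at 301 to 400 bp. It was lowest in the widest classes, at 105 for 401 to 500 bp and 107 for 501 to 1000 bp. A weaker relaxed peak without an IDR summit was present at a further 40.1 to 56.6% of the pairs in every class up to 500 bp.

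**Figure D3:**
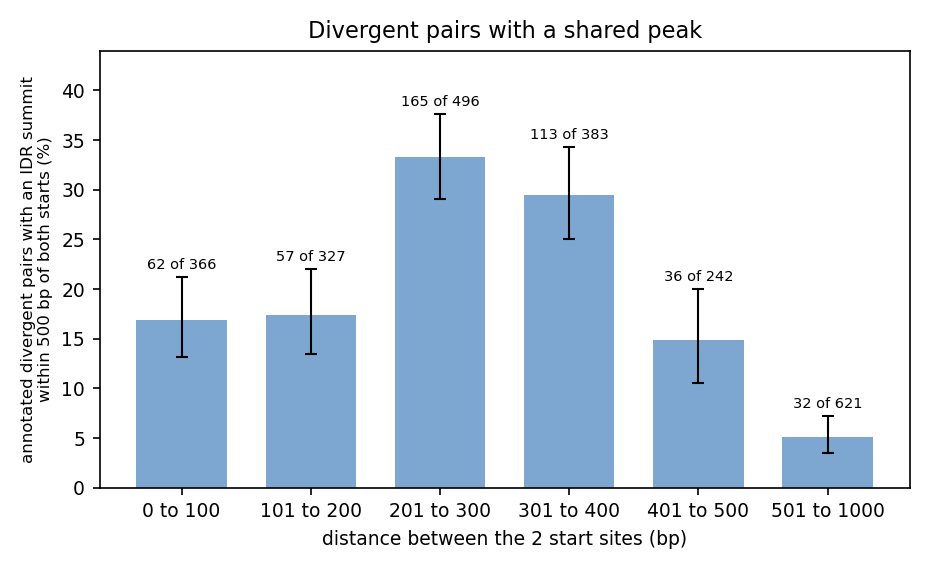
Percent of annotated divergent gene pairs with an IDR summit within 500 bp of both start sites (y axis) by the distance between the start sites (x axis, bp). Bars are shares, lines 95% Clopper-Pearson intervals, and the counts stand above; the classes of 201 to 300 bp (33.3%) and 301 to 400 bp (29.5%) are the tallest.

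The members' signal was close to that of peaks at the promoter of a single gene. The median pooled signal was 123 for shared, 120 for single-gene and 111 for the other IDR peaks. In replicate 1 the medians were 66.5, 67.7 and 63.2, and in replicate 3 they were 58.7, 53.3 and 50.5. Shared minus single-gene peaks was therefore -1.19 in replicate 1 and 5.38 in replicate 3, with an SD of 4.65 between the replicates, so the direction differed between them. Peaks at overlapping pairs only had a median of 145 pooled, 78.4 in replicate 1 and 69.8 in replicate 3. Peaks at divergent pairs only had 119, 65.3 and 58.2, lower in both replicates and in the pooled list made from them. The kinds of overlapping pair differed. The pooled median was 151 at 37 peaks with overlapping 5′ ends only and 153 at 16 with the same start only. At 13 nested-only peaks it was 113, with 59.2 in replicate 1 and 63.6 in replicate 3.

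Nearly every member had a relaxed peak in both replicates, 504 of 508 (99.2%, 98.0 to 99.8%), against 99.0% of single-gene and 99.3% of other IDR peaks. Spearman's correlation between the replicates' signals was 0.64 over the 504 peaks, against 0.611 for single-gene and 0.512 for other peaks. These peaks share 2 libraries and were selected on the pooled signal, so the correlation is a description. Members were among the 2451 strongest peaks of both replicates in 73.2% of cases, single-gene peaks in 68.5% and the others in 67.3%.

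**Figure D4:**
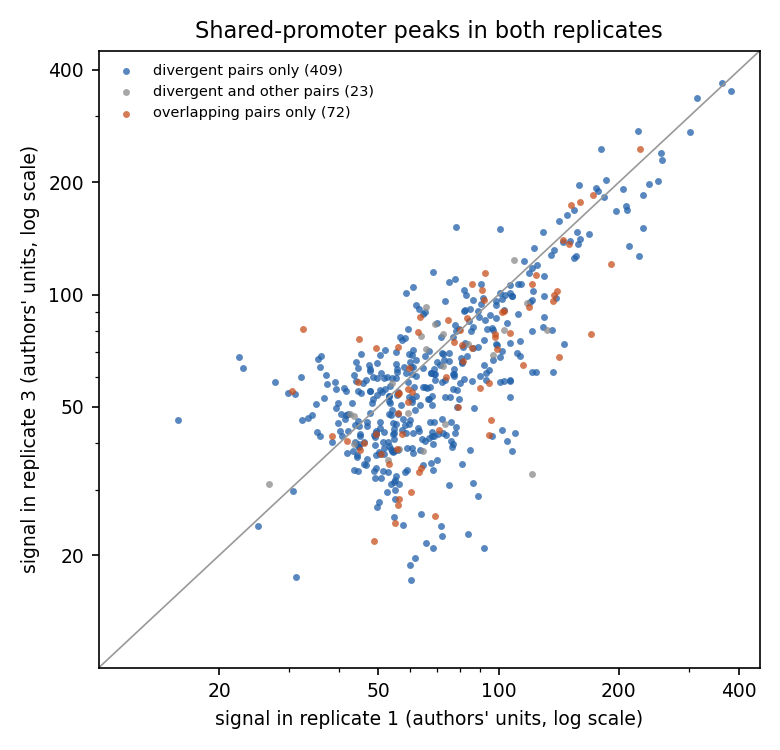
Signal of the 504 shared-promoter peaks found in both replicates, in replicate 1 (x axis) and replicate 3 (y axis), in the authors' units on log scales, coloured by the kind of gene pairs. Strong peaks lie near the line of equal values; below a signal of about 100 the points scatter widely, and divergent (blue) and overlapping (orange) pairs share the same cloud.

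The 4 members without a relaxed peak in a replicate were weak ones. No peak in replicate 1 matched that of U4-U6-60K, a splicing factor, and CG7564 (98.8 pooled, 44.2 in replicate 3), or that of RNaseZ, which trims tRNA, and CG12909 (93.5 pooled, 37.7 in replicate 3). No peak in replicate 3 matched that of Lasp, CG43954 and Dab (93.3 pooled, 67 in replicate 1), or that of SMSr and smid (83.2 pooled, 56.7 in replicate 1). The largest difference in rank was at SF2, a splicing factor, and pad, with 15.8 in replicate 1 (rank 18039) and 46 in replicate 3 (rank 1597). The next 4 were higher in replicate 1: scramb2 and Sk2 (60.3 and 17.2), heix and CG17328 (60.2 and 18.9), CG2310 and Diedel (61.7 and 19.7), and CG32486 and PAN3 (31.2 and 17.5).

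For 29 members the second gene lay 400 to 500 bp from the summit, and for 228 it lay 100 to 200 bp away. Just inside the limit were Spase22-23 with mask (499 bp, signal 148) and Su(var)3-9 with eIF2gamma (492 bp, 97.7). Just outside were CG13806 with ecd (525 bp, 162) and Mst36Fa with CG31751 (529 bp, 154).

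Motifs were read in windows of 101 bp centred on the summits, on both strands, as fixed letters. A match describes the letters only. The Sp/KLF box was read as CACACCC and its variant CACGCCC, and further as CCCACCC with its variant CCCGCCC. It was in 11 of 508 shared-promoter windows (2.17%, 1.09 to 3.84%), in 9.48% (7.45 to 11.8%) of single-gene windows and in 16.1% (14.1 to 18.3%) of the other IDR windows. For comparison it was in 2.09% of windows at the midpoints of all divergent pairs and 2.32% of windows centred 50 bp upstream of all protein-coding genes. Read against these without regard to GC content, members held the box about as often as promoters at large. The members' windows that hold it were led by CG5757 with CG5098 (424), CG4707 with CG42360 (183) and CG6424 with CG46315 (175), and the gap of CG9356 and CG8135 printed above is another.

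GC content moved with this result. The median was 32.7% in members' windows, 36.6% in single-gene and 35.6% in other IDR windows. It was 31.7% at the midpoints of all divergent pairs and 40.6% upstream of all protein-coding genes. Within windows of 30 to 40% GC the box was in 1 of 168 members (0.595%, 0.0151 to 3.27%), 8 of 233 single-gene (3.43%, 1.49 to 6.65%) and 14 of 427 other windows (3.28%). Within 40 to 50% GC it was in 5 of 86 members (5.81%, 1.91 to 13.0%), 12 of 173 single-gene (6.94%) and 54 of 243 other windows (22.2%, 17.2 to 28.0%). The intervals of members and single-gene windows overlapped in both of these classes. In windows of 50% GC and more the box was in 10.8% of 37 members (3.03 to 25.4%) and 44.5% of 110 single-gene windows (35.1 to 54.3%). At 40 to 50% GC the box was in 6.65% of midpoints and 3.01% of upstream windows, and at 50% and more in 5.03% and 4.87%. At 30 to 40% GC it was in 1.18% and 0.969%. All of these lay within the members' intervals. Whether anything beside base content separates the sets was not tested.

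Other promoter motifs were more frequent. The TATA box (TATAAA) was in 26.6% (22.8 to 30.6%) of members' windows, 17.2% (14.5 to 20.1%) of single-gene windows, 23.3% of midpoints and 20.2% of upstream windows. Within windows under 30% GC it was in 40.6% (34.0 to 47.4%) of 217 members and 37.3% (30.7 to 44.2%) of 212 single-gene windows. Within 30 to 40% GC it was in 22.0% (16.0 to 29.1%) and 16.3% (11.8 to 21.7%), so the intervals overlapped in both classes. Ohler motif 7, a core promoter element of housekeeping genes known by its consensus, was in 7.09% (5.01 to 9.68%) of members' windows, 3.71% (2.46 to 5.35%) of single-gene windows, 3.24% (2.58 to 4.03%) of midpoints and 4.47% of upstream windows. By GC class it was in 2.76% of members and 0.472% of single-gene windows under 30% GC. It was in 5.95% and 2.15% at 30 to 40%, and in 16.3% and 8.09% at 40 to 50%, with overlapping intervals in each. At midpoints it was in 0.900%, 3.09% and 6.22% of windows in these classes. Intervals of members and midpoints overlapped in the lower classes but not at 40 to 50% GC (9.20 to 25.8% and 4.21 to 8.82%). Brf, which encodes a subunit of the RNA polymerase III factor TFIIIB, with sds22, a regulator of a protein phosphatase (266), tum with Uba3 (208), and TppII with ND-MWFE (190) were the strongest with this motif in the window. Among the strongest peaks of replicate 3 alone its share at shared promoters was 6.34%, with 3.59% at single-gene ones.

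The DRE (TATCGATA) was in 4.72% (3.05 to 6.95%) of members' windows, 2.34% of single-gene and 0.247% of other IDR windows, in 4.85% of midpoints and in 6.30% of both the windows upstream of all genes and those at weaker relaxed peaks of shared promoters. Among its strongest holders were CG5339 with Lpt (364) and RpL28 with eIF1 (203). The BEAF-32 core CGATA, which every DRE contains, was in 24.0% of members, 20.9% of single-gene, 11.4% of other windows and 23.0% of midpoints, and in 28.4% of upstream windows and 29.5% of those at weaker relaxed peaks of shared promoters. Chro with Ssl1, Tcs5 with CHMP2B and Fbw5 with CG9147 led its holders. Motif 1 (GGTCACAC), bound by M1BP, was in 1.97% of members and 2.75% of midpoints, and CG7130 with RpLP0 (225) led it.

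Members with the CGATA core had a median signal of 112, against 127 for those without. The replicates gave 61.1 against 69 and 48 against 61.2. With the DRE the median was 103 against 123, at 24 and 484 peaks. It was 64.1 against 66.8 in replicate 1 and 44.3 against 58.8 in replicate 3, so the replicates differed in the size of this gap.

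Of the remaining motifs, GAGAG was in 5.91% (4.02 to 8.32%) of members, 10.9% of single-gene and 13.2% of other windows, beside 7.43% of midpoints. CG5611 with Mtl (447) was the strongest member with it. The initiator core TCAGT was in 14.6% of members and 16.8% of single-gene windows, and the Pho core GCCAT in 14.4% and 14.8%. The E-box CACGTG was in 0.787% of members, the E-box CAGCTG in 5.51% and the CTCF core AGGNGGC in 2.76%. Ohler motif 6 was in 0.984% and the Zelda site CAGGTAG in 0.394%. RpS27 with Nup37 (381) was the strongest with CAGCTG and Mnat9 with CG1792 (368) the strongest with the CTCF core.

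**Figure D5:**
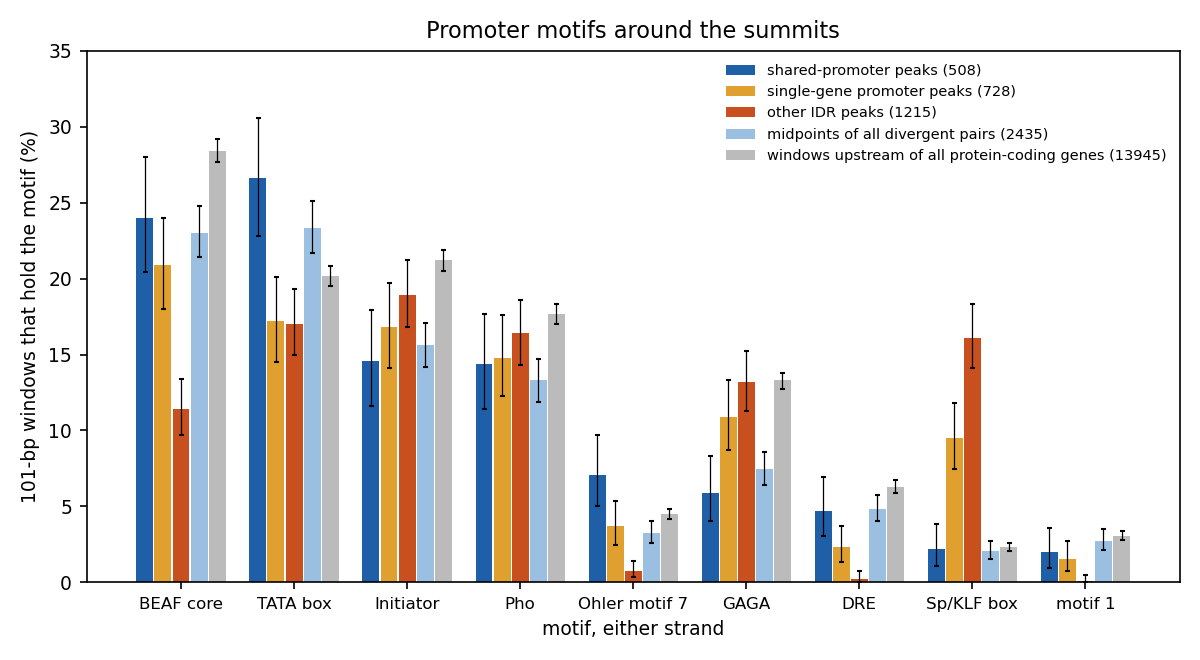
Percent of 101-bp windows that hold each motif on either strand (y axis) at the summits of shared-promoter, single-gene and other IDR peaks, at the midpoints of all divergent gene pairs and upstream of all protein-coding genes, with 95% Clopper-Pearson lines. For most motifs the members stand beside the midpoints of all divergent pairs; the Sp/KLF box is at 2.17% in members, 9.48% in single-gene and 16.1% in other windows.

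The genes at these peaks were shorter than those at single-gene peaks and close to other genes in span. Those with a shared-promoter peak spanned a median of 2481 bp (middle 50% from 1498 to 4374 bp) and 63.7% had 1 annotated start site. Those with a single-gene peak spanned 5652 bp and 44.6% had 1 start site. Genes of divergent pairs without an IDR summit near spanned 2120 bp and all protein-coding genes 2166 bp. Only a CG number was given as the name of 308 of the 1017 genes (30.3%), against 26% of genes with a single-gene peak, 36% of genes of divergent pairs without an IDR summit near and 43.7% of all genes.

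Among lists of genes by function, read against 7.29% of all genes and 19.1% of genes in divergent pairs, cytosolic ribosomal proteins stood at 26 of 86 with a shared peak (30.2%, 20.8 to 41.1%). Of the 52 ribosomal protein genes in divergent pairs, 46.2% had one. Peaks at the promoter of a single gene were also found at 20 of the 86, against 678 of all 13945 genes. RpS27 (381; 230 and 151 in the replicates), RpL7 (358; 224 and 127) and RpLP0 (225; 136 and 80.5) had the strongest. All 3 were higher in replicate 1, where the median member was also higher (66.5 against 58.7). Mitochondrial ribosomal proteins stood at 14 of 73 (19.2%, 10.9 to 30.1%), with mRpS10, mRpS23, mRpL23 and mRpL24 (221) the strongest, and at 23.2% of those in divergent pairs.

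Subunits of Mediator, the complex between activators and RNA polymerase II, stood at 8 of 25 (32.0%, 14.9 to 53.5%), led by MED17 (181; 85 and 91.3 in the replicates), MED27 (164; 86.2 and 81.7), MED30 (162; 103 and 58.5) and MED15 (145; 83.3 and 68.5). Subunits of respiratory complex I stood at 7 of 34 (20.6%, 8.70 to 37.9%), led by ND-MWFE (190), ND-ASHI (181), ND-42 (170) and ND-24 (126). RNA polymerase subunits stood at 5 of 30 (16.7%, 5.64 to 34.7%), led by Polr2B (244) and Polr2H (188). Aminoacyl-tRNA synthetases stood at 5 of 35 (14.3%, 4.81 to 30.3%), led by GluProRS (214) and IleRS (211). DNA replication and repair genes stood at 9 of 62 (14.5%, 6.86 to 25.8%), with Ssl1 (733), RnrS (198), Irbp (184) and mei-41 (155). Ribosome biogenesis genes stood at 5 of 21 (23.8%, 8.22 to 47.2%), led by Ns2 (228). Counting only genes in divergent pairs, 7 of 18 Mediator (38.9%), 5 of 16 complex I (31.2%) and 5 of 18 RNA polymerase genes (27.8%) had a shared peak. So did 4 of 23 aminoacyl-tRNA synthetase (17.4%), 9 of 40 DNA replication and repair (22.5%) and 5 of 16 ribosome biogenesis genes (31.2%). The share of all genes in divergent pairs was 19.1%. No intervals were computed for these small counts, so a difference from that share was not tested.

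Nuclear pore genes stood at 4 of 21 (19.0%, 5.45 to 41.9%) and initiation factors at 4 of 44 (9.09%, 2.53 to 21.7%). Polycomb and trithorax group genes stood at 4 of 30 (13.3%, 3.76 to 30.7%), where the chromatin remodeller brm (270) and the histone methyltransferase gene E(z) (212) were the strongest. General transcription factors stood at 3 of 23 with Taf5 (183), and the proteasome at 3 of 48 (6.25%, 1.31 to 17.2%) with Rpn5 (117). The RNA exosome list had 4 of 13, but its strongest gene, Rrp1 (208), encodes a DNA repair enzyme and was caught by its name; Csl4 (104), Rrp6 (103) and Ski6 (85.9) are subunits of the exosome. No shared-promoter peak was found at 179 chemoreceptor, 51 odorant-binding protein, 85 cuticle protein or 8 Hox genes. By the rule of 3 counts, which is not the Clopper-Pearson limit, this allows a share of 1.68% of the chemoreceptor, 5.88% of the odorant-binding and 3.53% of the cuticle genes, and the Clopper-Pearson upper limits are 2.04%, 6.98% and 4.25%. Few of these genes could have had one at a divergent pair, since 22, 10 and 9 of them are in such a pair and none of the Hox genes is.

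At some peaks genes of 2 of these lists faced each other. RpS27 and Nup37 shared 1, RpL28 and eIF1 shared 2 peaks (203 and 110), and Csl4 and Nup160 (104) and Ns1 and mRpS11 (103) shared 1 each.

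The X chromosome had fewer shared-promoter peaks than the large autosomal arms. Of its 175 promoter peaks, 40 were shared (22.9%, 16.9 to 29.8%), against 40.3% on arm 2R, 43.9% on 2L and 46.1% on both 3L and 3R. The share of annotated divergent pairs with a shared peak was 9.04% (6.31 to 12.5%) on X and 15.1% (2R) to 25.6% (3R) on the others. In the lists of a replicate alone the share of X promoter peaks was 22.2% and 26.3%, against 45.4% and 41.7% on the autosomes together. The median signal of members on X was 109, and 117 to 129 on the large autosomal arms. On chromosome 4 none of 5 promoter peaks was at a shared promoter.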

How the data were processed

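The data were ChIP-seq peak lists of 2 biological replicates of CG3065-GFP embryos; nothing says that they came from separate embryo collections. Per the labels, chromatin was sonicated to 200 to 800 bp. Signal values are those the authors deposited in narrowPeak lists, used to rank peaks within a list. No aligner, peak caller or IDR cutoff is given in the sources used here; depth is unknown, and control libraries and the dm3 lists were not analysed here.

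Summits were compared with the start sites of all protein-coding transcripts on 6 chromosome arms in Ensembl release 115 (BDGP6, version 54). Sequence came from the RefSeq genome of Release 6, which dm6 shares; coordinates are 1-based and none was converted. Each gene counted with its start nearest to the summit, and pairs whose spans share a base were called overlapping first. Named are the 25 strongest members, the 5 with most genes, the strongest 3 per kind of pair and per motif, the strongest 4 per gene list, those that differ most between replicates or lack a peak in one, those at the 500 bp limit, and CG3065; some that the rule names are not reported here. The printed gaps are among the strongest divergent ones of at most 300 bp, or the strongest that hold a motif. All come from outside arm 2R and from peaks with the summit between the starts. The members and lists were chosen with earlier results of these data known. Alternatives changed the distance, peaks, start sites, pair classes, summit match and motif window. Pair classing, summit matching and motif search were tested on simulated data. The software was pandas 2.3.3, numpy 2.4.6, matplotlib 3.10.9, scipy 1.17.1 and Python 3.11.15.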

Additional observations from a re-analysis of the deposited data

How the results depend on the processing

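Of 74 values recomputed under other settings, 49 stayed within the margin set for them and 25 moved past it. The margin was 1.5 times for the count of members, else the interval or the SD between replicates. Counts and shares cannot reverse, and only the shared minus single-gene median has a sign. That difference stayed positive under the other settings, but for the same peaks it was -1.19 in replicate 1 and 5.38 in replicate 3. With 250 bp in place of 500 bp there were 345 members, 34.6% of promoter peaks were shared and 0% of 438 pairs were tandem. With 1000 bp there were 627 members, 2.35% of pairs were tandem and 17.3% of divergent pairs had a shared peak. With 1 start site per gene, 45.9% of promoter peaks were shared, 83.8% of pairs divergent and 16% overlapping. With the starts of all genes, coding or not, these pairs were 70.9% divergent, 25.5% overlapping and 3.44% tandem. Classing by orientation only gave 86.1% divergent and 12.4% tandem, since same-start pairs then count as tandem. The stronger part of the IDR list held 284 members, all with a relaxed peak in both replicates (100%), a shared peak at 11% of divergent pairs and CGATA in 19.4% of windows. Summits matched within 100 bp left 92.7% of members in both replicates, and within 500 bp 99.8%. Motif windows of 100 bp either side held the DRE in 9.84%, CGATA in 43.1% and the Sp/KLF box in 4.33%. Chosen after seeing the data, windows of 30 to 40% GC held CGATA in 28% and the box in 0.595%; leaving out the mod(mdg4) peak gave 80.3% divergent pairs.

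With the strongest peaks of a single replicate in place of the IDR list, 94.7 to 98% of members had a peak in both replicates, 79.2 to 83.8% of divergent summits lay between the starts, and the shared minus single-gene median, 3.18 in the IDR list, ranged from 0.484 without replicate 3 to 4.25 without replicate 1. The cause of these moves was not tested. No paired analysis was possible because there is 1 group. Depth is unknown, so weak peaks missed for depth cannot be told apart from absent ones.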
